A study of Rattus norvegicus with 12 samples.

Results

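The heme synthesis genes are 9 genes, 8 enzymes and the mitochondrial iron carrier Slc25a37, followed here in rat skull bone 6 h after surgery. They were chosen by gene symbol: Alas1, Alas2, Alad, Uros, Urod, Cpox, Ppox, Fech and Slc25a37, out of 22937 gene names measured after the filter on dim probes. All 9 passed that filter. They had 12 probes on the array, 1 probe for 6 genes and a pair of probes for 3 (Alad, Uros and Ppox), and each gene was followed by its brightest probe. The list does not hold every enzyme of the route.

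The bone was calvaria, the roof of the skull, from rats 10 weeks old, and 4 one-colour arrays were run for each of 3 treatments. For the laser group an 8 by 3 mm defect was cut in 3 strokes with an Er:YAG device, which emits infrared light that water absorbs strongly, at 127 mJ per pulse and 20 Hz. The bur group had a defect of equal area drilled mechanically. Control bone was left uncut but had its periosteum, the membrane that covers bone, taken off, so it is not intact bone. No strain is named, and nothing says whether the 4 samples of a group are different rats. The tests therefore set differences between group means against the spread among these samples, which may be technical.

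Heme is the iron-bearing ring that carries oxygen in haemoglobin and electrons in cytochromes. Its synthesis starts and ends in the mitochondrion, with a middle stretch in the cytosol. The first step has separate genes for the enzyme of most tissues (Alas1) and the enzyme of red cell precursors (Alas2). The genes after it serve all cells, but red cell precursors, which mature in the bone marrow, make most of the body's heme and hold these enzymes at high levels.

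Of the genes with a pair of probes, Ppox gave the most unlike sizes of change. Probe sequences show what was measured and are printed for Alas2, the erythroid enzyme of the first step, and for the further probe of Ppox. Both are in lower case, 60 bases long and 5′ to 3′ along the transcript, as the deposited files give them, with no base in capitals. Alas2 was read at chrX:39810353-39810412 on the plus strand, in the coordinates of the array design (RGSCv3.4).
Alas2 probe: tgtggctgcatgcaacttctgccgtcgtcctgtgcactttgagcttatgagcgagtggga
Over all ungapped alignments this probe shares at most 20 of 60 bases with the Alas1 probe. Its match to the rest of the Alas1 transcript was not tested, so whether it also reads Alas1 is not known. The further Ppox probe, the dimmer of the pair, lies on the minus strand at chr13:87173988-87174047.
Ppox further probe: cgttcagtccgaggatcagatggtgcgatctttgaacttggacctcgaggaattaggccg

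On each array 67.8% to 73.7% of spots that are not controls stood well above background, and 0 were saturated. The 12 arrays lay on 3 slides, with 4 control arrays on 1 slide and 2 laser and 2 bur arrays on each of the others. Before scaling, spike-in spots had a log2 signal 3.21 higher on treated arrays than on control arrays. For each contrast against control, effects of treatment, of slide or scan and of array preparation cannot be told apart. Values below are log2 signal minus the array's 75th percentile, so that 0 is that percentile. They compare groups for 1 probe and not the levels of different genes. A gene is said to rise or fall where its limma p, adjusted over all genes by the Benjamini-Hochberg method, was under 0.05.

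Laser-cut bone had lower signal than control bone for 8 of the 9 genes, among them every listed enzyme except Alas1, and 0 were higher. Of all genes, 17.6% were lower in this comparison. By the probes used, the falls ran from 2.01-fold (Ppox) to 6.43-fold (Uros). The further probes of these genes fell by 6.08-fold for Ppox and 3.68-fold for Uros. The median log2 fold change of the 9 genes was -1.58, against 0.21 over all genes. Bur-drilled bone likewise had 8 of the 9 genes lower and 0 higher, where 18.3% of all genes were lower. There the median was -1.74, against 0.23 over all genes, and Alas2 had the largest fall, 7.10-fold. Both comparisons use the same 4 control arrays. Between laser and bur 0 of the 9 genes passed, where 0.00436% of all genes, a single one, were called higher and 0% lower by limma (1491 genes at an unadjusted p under 0.05).

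**Figure D1:**
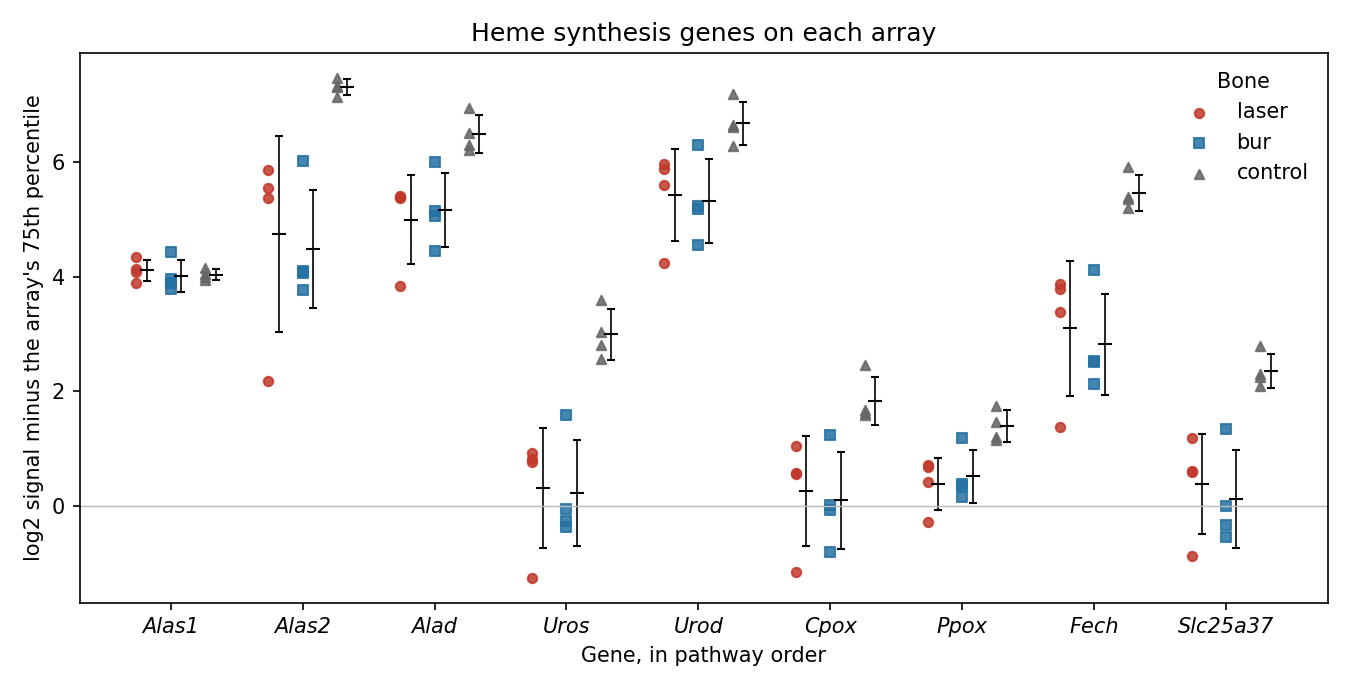
Log2 signal minus the array's 75th percentile (vertical axis) of the 9 genes in pathway order, with a point per array for laser, bur and control bone and a bar for the mean and SD of each group (n = 4). The control points stand above all laser points for 8 genes and mix with them for Alas1.

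Alas1 and Alas2 make the first committed intermediate, 5-aminolevulinic acid, from glycine and succinyl-CoA. Alas2 signal was 2.19, 5.55, 5.87 and 5.38 on laser arrays 1 to 4, then 3.76, 4.10, 6.02 and 4.07 on bur arrays 1 to 4, against 7.14, 7.47, 7.34 and 7.32 on control arrays 1 to 4. All 8 treated arrays lay below all 4 control arrays, and they were spread far wider. Alas2 averaged 4.75 ± 1.72 in laser bone, 4.49 ± 1.03 in bur bone and 7.32 ± 0.14 in control bone (SD, n = 4 each). It fell by 2.57 on the log2 scale against control in laser bone (SE 0.74, limma adjusted p = 0.0151) and by 2.83 in bur bone (adjusted p = 0.00952), folds of 5.94 and 7.10. On the treated arrays of slide 2 alone the laser value was -1.69, still past the threshold, and without laser replicate 1 it was -1.72.

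Alas1 behaved otherwise. Its signal was 4.09, 4.13, 3.89 and 4.34 on the laser arrays, then 4.43, 3.79, 3.89 and 3.96 on the bur arrays, against 4.003, 4.16, 4.05 and 3.95 on the control arrays. The 3 groups overlapped fully. The log2 fold change was 0.07 for laser against control (95% interval -0.27 to 0.41, limma adjusted p = 0.714) and -0.02 for bur against control (adjusted p = 0.904). Under other scalings it took either sign, -0.18 for laser with quantile normalization and 0.17 for bur with normexp, and passed in none. Within an array, Alas2 minus Alas1 was -1.90 to 1.98 on laser arrays, -0.66 to 2.13 on bur arrays and 3.13 to 3.38 on control arrays. This difference, in which the scaling of the array cancels, did not overlap between treated and control arrays, and shows unequal change of the 2 genes, not that Alas1 was constant.

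**Figure D2:**
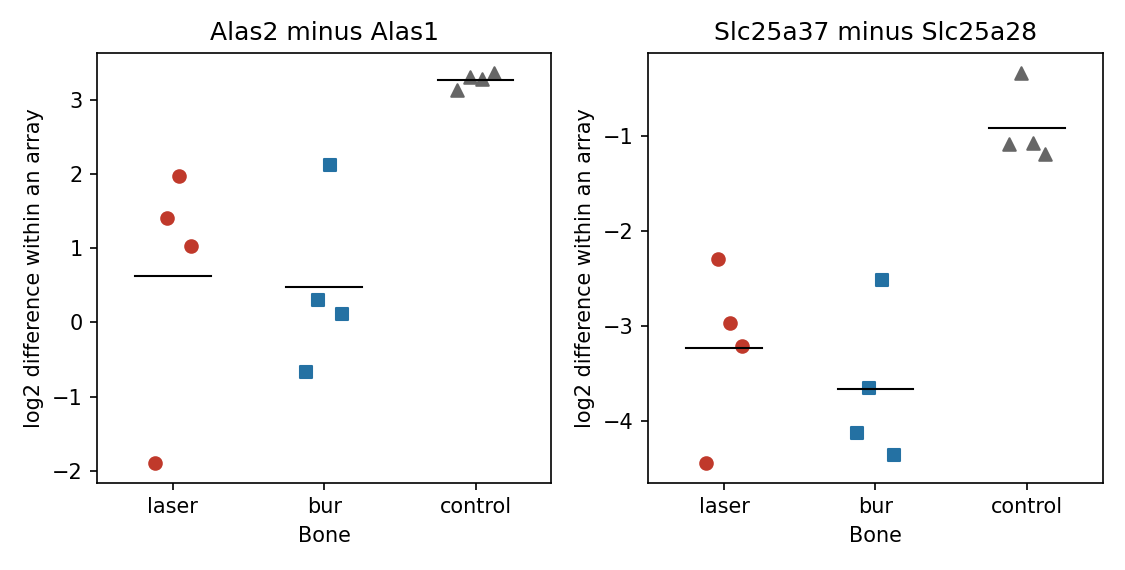
Difference of log2 signal within each array (vertical axis) for Alas2 minus Alas1 and for Slc25a37 minus Slc25a28, with a point per array of laser, bur and control bone and a line at the group mean. In both pairs the 4 control arrays stand above all 8 treated arrays.

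The cytosolic steps were lower in both treated groups. Alad, which joins aminolevulinic acid into porphobilinogen, had 3.83, 5.37, 5.39 and 5.41 on the laser arrays, then 4.45, 5.15, 6.01 and 5.07 on the bur arrays, against 6.30, 6.95, 6.50 and 6.22 on the control arrays. Neither treated group overlapped control, although bur array 3 came close. Alad fell by 1.49 in laser bone (SE 0.40, limma adjusted p = 0.0103) and by 1.33 in bur bone (SE 0.40, adjusted p = 0.0177), folds of 2.81 and 2.51. The bur call was lost without bur replicate 1 (log2 -1.09) or control replicate 2 (-1.17). Its further probe fell more, by 2.17 in laser and 2.18 in bur bone.

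Uros closes the tetrapyrrole ring that all later intermediates share. Its signal was -1.25, 0.82, 0.92 and 0.76 on the laser arrays, then -0.37, -0.26, 1.59 and -0.06 on the bur arrays, against 2.56, 3.59, 3.03 and 2.80 on the control arrays. No treated array reached the lowest control array. Uros fell by 2.69 in laser bone (SE 0.54, limma adjusted p = 0.00255) and by 2.77 in bur bone (adjusted p = 0.00218). A further Uros probe fell by 1.88 and 2.35.

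Urod, which trims the side chains of the ring, had 4.24, 5.98, 5.89 and 5.61 on the laser arrays, then 4.55, 5.24, 6.31 and 5.19 on the bur arrays, against 6.29, 7.19, 6.61 and 6.65 on the control arrays. Bur array 3 lay above control array 1, so bur and control overlapped by that pair of arrays. Urod fell by 1.26 in laser bone (SE 0.43, limma adjusted p = 0.0316) and by 1.36 in bur bone (SE 0.43, adjusted p = 0.0223). The laser call held in 23 of 30 alternatives, the fewest of the 8 lowered genes, and the bur call in 25. The laser call was lost without laser replicate 1 (log2 -0.86) or without control replicate 2 (-1.09), 3 (-1.28) or 4 (-1.27), and the bur call without bur replicate 1 (-1.103) or control replicate 2 (-1.19). Both were lost with slide as a block (adjusted p = 0.0731 for laser and 0.0556 for bur) and with the treated arrays of slide 2 alone (-0.94 and -0.93).

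The last enzymes sit in the mitochondrion. Cpox oxidises coproporphyrinogen and had -1.15, 1.05, 0.58 and 0.56 on the laser arrays, then -0.81, 0.02, 1.24 and -0.07 on the bur arrays, against 1.63, 2.46, 1.58 and 1.67 on the control arrays. The groups were apart, and control array 2 stood above the other control arrays. Cpox fell by 1.58 in laser bone (SE 0.50, limma adjusted p = 0.0237) and by 1.74 in bur bone (adjusted p = 0.0151). The laser call was lost without laser replicate 1 (-1.11) or control replicate 2 (-1.37) and with slide as a block (adjusted p = 0.0606).

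Ppox makes protoporphyrin, the last iron-free ring. Its used probe had -0.27, 0.68, 0.71 and 0.42 on the laser arrays, then 0.15, 0.34, 1.19 and 0.38 on the bur arrays, against 1.21, 1.75, 1.46 and 1.15 on the control arrays. Laser and control did not overlap, while bur array 3 lay above control array 4. By this probe Ppox fell by 1.01 in laser bone (SE 0.27, limma adjusted p = 0.0109) and by 0.88 in bur bone (SE 0.27, adjusted p = 0.0203), the smallest falls of the 8 genes. The bur call was lost without bur replicate 1 (log2 -0.76), bur replicate 2 (-0.82) or control replicate 2 (-0.76), with slide as a block (adjusted p = 0.0523) and on slide 2 alone (-0.61), and the laser call on slide 2 alone (-0.83).

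The further Ppox probe, printed above, gave much larger falls. It had -4.08, -3.55, -3.99 and -4.04 on the laser arrays, then -4.22, -3.77, -3.03 and -3.77 on the bur arrays, against -1.75, -0.95, -1.40 and -1.15 on the control arrays. It was dim, and well above background on 3 of 4 bur arrays and on all laser and control arrays. It fell by 2.60 in laser bone (SE 0.25, adjusted p = 0.000101 with limma over all kept probes) and by 2.38 in bur bone (adjusted p = 0.00017). With the mean of both probes Ppox stood at -1.81 for laser and -1.63 for bur. The order of the enzymes by size of fall therefore depends on the probe.

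Fech, ferrochelatase, inserts iron and completes heme. Its signal was 1.37, 3.88, 3.79 and 3.38 on the laser arrays, then 2.13, 2.54, 4.12 and 2.51 on the bur arrays, against 5.20, 5.91, 5.35 and 5.40 on the control arrays. All treated arrays lay below the control arrays. Fech fell by 2.36 in laser bone (SE 0.56, limma adjusted p = 0.00572) and by 2.64 in bur bone (SE 0.56, adjusted p = 0.00322), folds of 5.13 and 6.23.

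Slc25a37, or mitoferrin 1, brings iron into the mitochondrion of red cell precursors, as known from zebrafish and mouse. It had -0.87, 1.19, 0.62 and 0.59 on the laser arrays, then -0.33, 0.01, 1.35 and -0.54 on the bur arrays, against 2.25, 2.79, 2.31 and 2.10 on the control arrays, with no overlap of treated and control arrays. It fell by 1.98 in laser bone (SE 0.47, limma adjusted p = 0.00581) and by 2.24 in bur bone (adjusted p = 0.00308). Its relative Slc25a28, or mitoferrin 2, found in most tissues, moved the other way and is named after its values were seen. In the values as scaled here, Slc25a28 rose by 0.33 in laser bone (limma adjusted p = 0.0281), against a median of 0.21 over all genes. It rose by 0.51 in bur bone (limma adjusted p = 0.00377), against a median of 0.23. The laser call held in 17 of 30 alternatives, with 0.04 to 0.42 on the log2 scale, and was lost without laser replicate 1 or 4 or control replicate 2 or 4. Within an array, Slc25a37 minus Slc25a28 was -4.45 to -2.29 on laser arrays, -4.37 to -2.52 on bur arrays and -1.19 to -0.33 on control arrays.

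**Figure D3:**
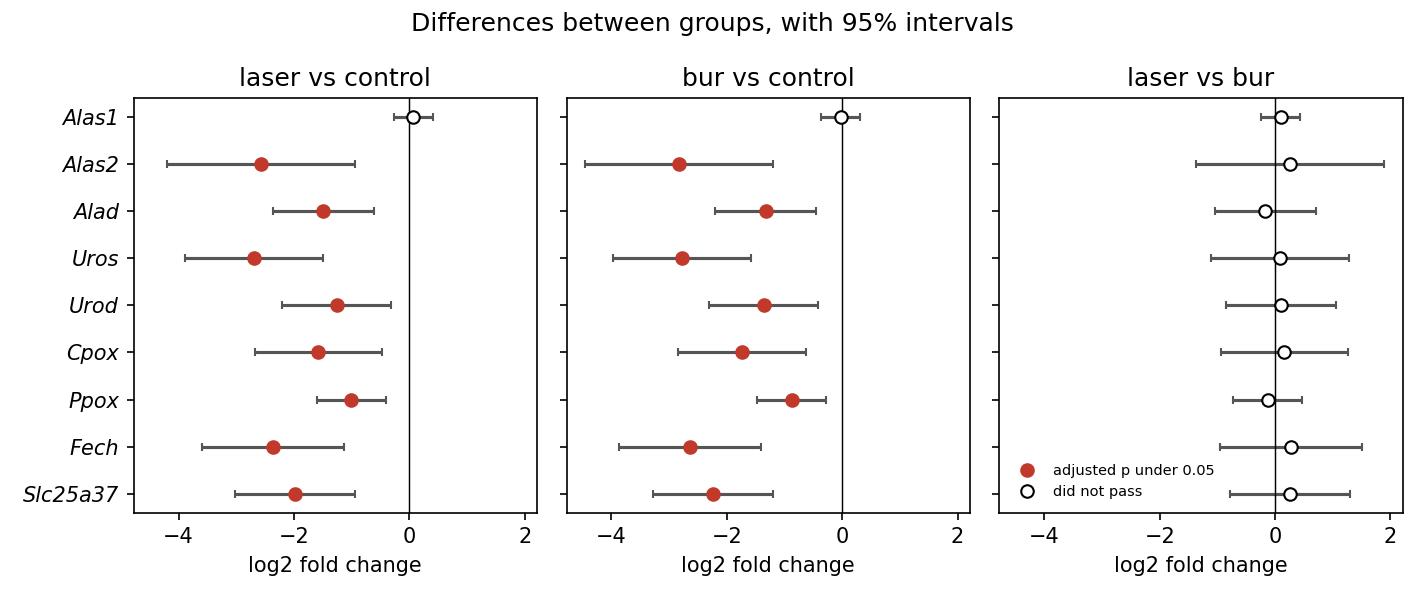
Log2 fold change (horizontal axis) of each of the 9 genes for laser against control, bur against control and laser against bur, with limma's 95% intervals. Filled points had an adjusted p under 0.05, which held for 8 genes in each comparison with control and for 0 between laser and bur.

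The arrays of treated and control bone were apart for most of these genes. Of the 9 genes, 8 had every laser array below every control array, where 17.7% of all genes did, and 6 had every bur array below every control array, where 15.6% did. Among all genes ranked by log2 fold change, Uros stood at percentile 0.82 and Alas2 at 1.04 for laser, and Alas2 at 0.501 for bur, counted from the most lowered gene. The least lowered of the 8 by the probes used, Ppox, stood at percentile 10.9 for laser and 12.6 for bur. These ranks depend on the probe for Uros and Ppox. Alas2, Uros, Fech and Slc25a37 kept their calls against control in both treated groups under every alternative except a test against a minimum log2 fold change of 1, in which 0 of the 9 genes passed. None of the alternatives separates treatment from slide, since control bone lay on a slide of its own.

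Between laser and bur the log2 fold changes of the 9 genes ran from -0.17 (Alad) to 0.28 (Fech), with a median of 0.10 against 0.01 over all genes. The intervals were wide. For Alas2 the difference of 0.26 had a 95% interval of -1.38 to 1.89, for Fech -0.95 to 1.51 and for Uros -1.11 to 1.28, and the Alas2 interval spans more than 1 on the log2 scale in either direction. Within slides, laser minus bur for Alas2 was -0.06 on slide 1 and 0.58 on slide 2, and for Fech 0.29 and 0.27, from 2 arrays a group on each slide. With laser replicate 1 and bur replicate 3 both left out, a setting added after seeing the data, Alas2 was higher in laser bone by 1.62 (limma adjusted p = 0.0317) and Fech by 1.29 (adjusted p = 0.0457). These were the lowest laser and the highest bur array for the lowered genes, so leaving both out raises laser minus bur by construction.

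The 8 lowered genes shared some ends of the array order within a group. Laser replicate 1 was the lowest laser array for 8 of 8, bur replicate 3 the highest bur array for 8 of 8, bur replicate 1 the lowest for 7 of 8 and control replicate 2 the highest control array for 8 of 8. The other ends were not shared. The highest laser array was replicate 2 for 4 genes, replicate 3 for 3 and replicate 4 for 1, and the lowest control array was replicate 1 for 4, replicate 4 for 3 and replicate 3 for 1. Over all pairs of the 9 genes, the root mean square difference of their profiles, each centred on its own mean over 12 arrays, was smallest for Alad and Urod at 0.181 and largest for Alas1 and Alas2 at 1.66. Red cell markers and granulocyte precursor genes had the same low laser, high bur and high control array in their mean signal. The mean log2 signal of 16 erythroid markers was -2.02 on laser replicate 1 and 1.03 to 1.47 on the other laser arrays, and 1.74 on bur replicate 3 and -0.38 to 0.19 on the other bur arrays, against 2.66 to 3.53 on the control arrays. The mean of 6 granulocyte precursor genes was 0.33 on laser replicate 1 and 1.84 to 2.52 on the other laser arrays, and 2.80 on bur replicate 3 and 0.61 to 1.51 on the other bur arrays, with its highest control value, 4.04, on replicate 2. Single markers departed from this order, as Ermap was lowest on laser replicate 4 and Sptb was higher on bur replicates 2 and 4 than on replicate 3.

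**Figure D4:**
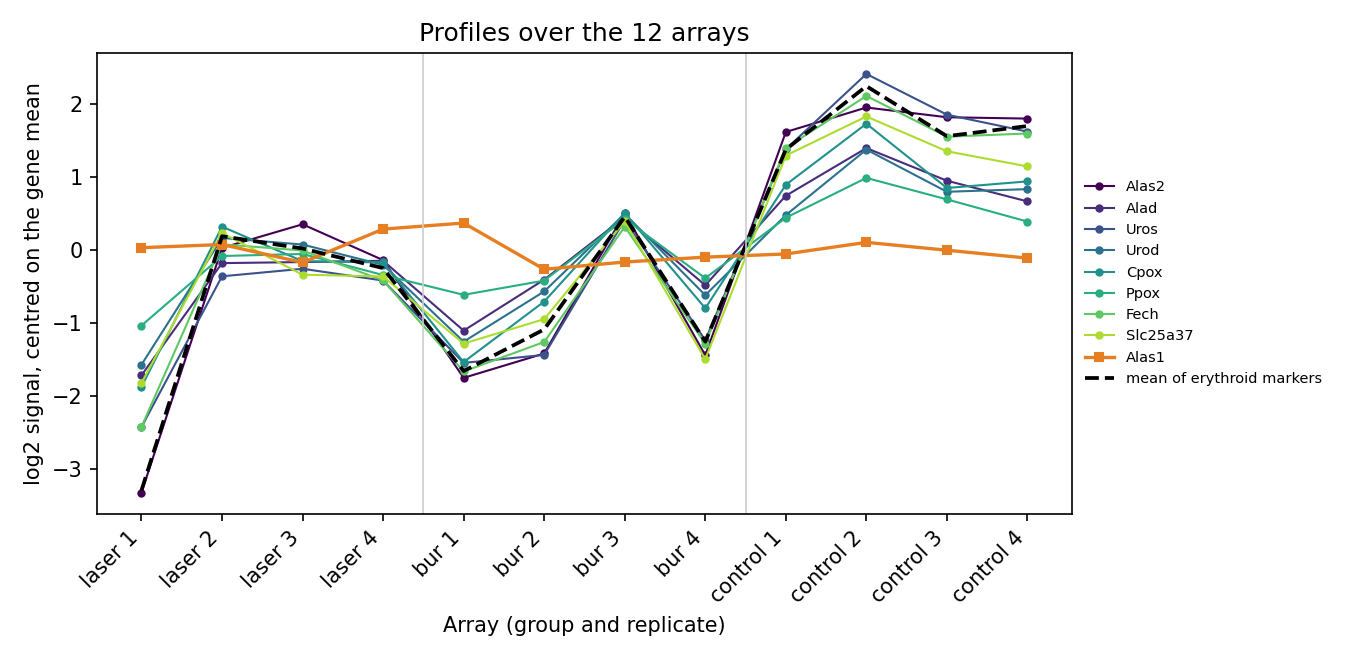
Log2 signal of each of the 9 genes, centred on its mean over the 12 arrays (vertical axis), along the arrays of laser, bur and control bone, with the mean of the 16 erythroid markers as a dashed line. The 8 lowered genes and the markers dip on laser replicate 1 and peak on bur replicate 3 within the treated groups, and Alas1 stays near 0.

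Of the 16 erythroid markers 14 fell and 0 rose in each comparison with control, where 17.6% of all genes fell for laser and 18.3% for bur, with medians of -2.77 for laser and -2.81 for bur. The number that fell in laser bone was 12 without laser replicate 1 and 10 without control replicate 2. Of all 22937 genes, 3167 and 3063 fell in these fits. The summed linear signal of the list, in units of the array's 75th percentile, was 14.8 to 331 in laser bone and 73.1 to 414 in bur bone, against 605 to 1027 in control bone. All 16 were well above background on every array but 1, on which Trim10 was not (a laser array). The transcription factor Gata1 fell by 2.97 in laser bone and 2.96 in bur bone, Ermap, a red cell membrane protein, by 1.73 and 1.85, and Tspan33, a tetraspanin of red cell precursors, by 2.90 and 2.88. Ahsp, the haemoglobin chaperone, and the spectrin gene Sptb did not pass. Ahsp stood at -2.42 for laser and -2.12 for bur, and it passed as lower in 13 of 30 alternatives for laser and in 8 of 30 for bur. Sptb stood at -0.37 for laser and 0.26 for bur, and with the mean of its probes it fell by 1.24 in laser bone and by 0.85 in bur bone. In bulk bone, fewer cells of a type and less RNA per cell cannot be told apart, and the part of red cell precursors in the fall of the heme genes was not tested.

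Marker genes of other cell types changed in signal as well. Of 6 measured granulocyte precursor genes 5 fell in both treated groups (medians -2.42 and -2.62 for laser and bur), against 17.6% and 18.3% of all genes, with Ngp, a neutrophil granule protein, lower by 2.71 in laser and 3.09 in bur bone, the elastase gene Elane by 2.85 and 3.34 and the myeloperoxidase gene Mpo by 2.36 and 2.76. With treated slide 2 only, 3 fell in laser bone, where 2589 of all 22937 genes fell. Their mean log2 signal on the control arrays was 3.74 to 4.04, above every treated array. Of 9 genes of bone-forming cells, which mark the labelled tissue, 9 rose in laser and 8 in bur bone, where 32.2% and 32.7% of all genes rose (medians 1.63 and 1.18). All 9 were measured in control bone. Runx2, the osteoblast transcription factor, rose by 2.18 and 1.99, Dmp1, a matrix protein of osteocytes, by 2.88 and 0.95, and Mepe, a matrix glycoprotein, by 1.63 and 1.59. Their part in the heme gene results was not tested.

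Partners of the pathway in the mitochondrion fell for the most part. Of 11 such genes 7 fell and 2 rose against control in each treated group, with medians of -0.76 for laser and -0.60 for bur. Over all genes 17.6% fell and 32.2% rose for laser, and 18.3% fell and 32.7% rose for bur, so the share of these genes that rose was below that of all genes. Tmem14c, which moves a porphyrin precursor across the inner membrane in mouse red cell precursors, had 3.09 to 3.99 on the laser arrays and 3.12 to 4.17 on the bur arrays, against 4.93 to 5.63 on the control arrays. It fell by 1.64 in laser bone (limma adjusted p = 0.00068) and by 1.70 in bur bone. Fam210b, which aids mitochondrial iron import in mouse erythroid cells, fell by 2.19 and 2.34, and Slc25a39, a glutathione carrier, by 1.13 and 1.28. The genes that rose were Slc25a28 and Pgrmc2, a heme chaperone (0.51 and 0.49). In quantile-normalized values neither rise passed for laser (0.12 for Slc25a28 and 0.26 for Pgrmc2), nor did Pgrmc2 for bur (0.28). In a limma fit of the authors' deposited normalized values neither gene passed in either comparison. With treated slide 2 only, 4 of the 11 fell in bur bone, where 2848 of all 22937 genes fell.

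Genes of iron supply were mixed. Of 13, 4 fell and 2 rose in laser bone (median 0.0025), and 5 fell and 1 rose in bur bone (median -0.20). The shares of all genes were 17.6% and 32.2% for laser and 18.3% and 32.7% for bur, so fewer of these genes rose than over all genes. Tfrc, the transferrin receptor, had 1.1, 3.79, 3.63 and 3.66 on the laser arrays, then 1.91, 2.15, 4.01 and 2.33 on the bur arrays, against 4.99, 6.06, 5.20 and 5.72 on the control arrays. It kept the array order of the heme genes and fell by 2.44 in laser bone (limma adjusted p = 0.00845) and by 2.89 in bur bone (adjusted p = 0.00362). Tf, transferrin itself, fell by 1.23 and 1.40. Aco1, the cytosolic aconitase that turns into an iron-responsive RNA binding protein when iron is scarce, rose by 0.62 and 0.51. With treated slide 2 only, the laser calls of Aco1 (0.51) and Tf (-1.08) were lost, and with treated slide 1 only the bur call of Aco1 (0.47).

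Heme breakdown and transport also went both ways. Of 9 measured genes 3 rose and 4 fell in each treated group, with medians of -0.32 for laser and -0.38 for bur. The share that rose was about that of all genes (32.2% for laser and 32.7% for bur), while 17.6% and 18.3% of all genes fell. One of the 3 that rose was Hpx, hemopexin, which binds heme in plasma. Hpx was well above background on all 4 laser and all 4 bur arrays but on only 1 control array, so it passed the filter on dim probes through the treated groups and its rise is no support for the list. With treated slide 2 only, 1 of the 9 fell in bur bone, about the share of all genes there (2848 of 22937). Hmox1, heme oxygenase 1, which degrades heme and is induced by it, had 3.94, 3.56, 3.68 and 3.69 on the laser arrays, then 3.85, 3.23, 3.90 and 3.77 on the bur arrays, against 4.38, 4.44, 4.82 and 5.18 on the control arrays. It fell by 0.99 in laser bone (limma adjusted p = 0.00291) and by 1.02 in bur bone (adjusted p = 0.00255), and its laser replicate 1 was the highest laser array, while it was the lowest for the 8 lowered heme synthesis genes. Abcg2, which exports porphyrins, fell by 1.24 and 1.15, and its bur call was lost with treated slide 2 only (-0.82). Flvcr2, a transporter of choline earlier described as a heme carrier, rose by 1.54 and 1.32, and no treated array overlapped control.

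Of 8 regulators of the pathway 2 fell and 1 rose in each treated group, with medians of -0.28 for laser and 0.02 for bur. The share that fell was near that of all genes (17.6% and 18.3%) and the share that rose below it (32.2% and 32.7%). Eif2ak1, the kinase that slows translation when heme is short, fell by 0.99 in laser bone and by 1.03 in bur bone. Nr1d2, a nuclear receptor that binds heme, rose by 0.95 and 1.099, but with the mean of its probes the laser value was 0.51 and did not pass, nor did it in the fit of the authors' deposited normalized values (0.38). Ppargc1b, a coactivator, fell by 0.70 and 0.56, and its bur call held in 20 of 30 alternatives. That call was lost without bur replicate 1 or 3 or control replicate 1 or 3, with slide as a block, on either treated slide alone and in the fit of the authors' deposited normalized values (-0.38), and the laser call on slide 2 alone (-0.67). Between laser and bur 0 genes passed in any of these lists.

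**Figure D5:**
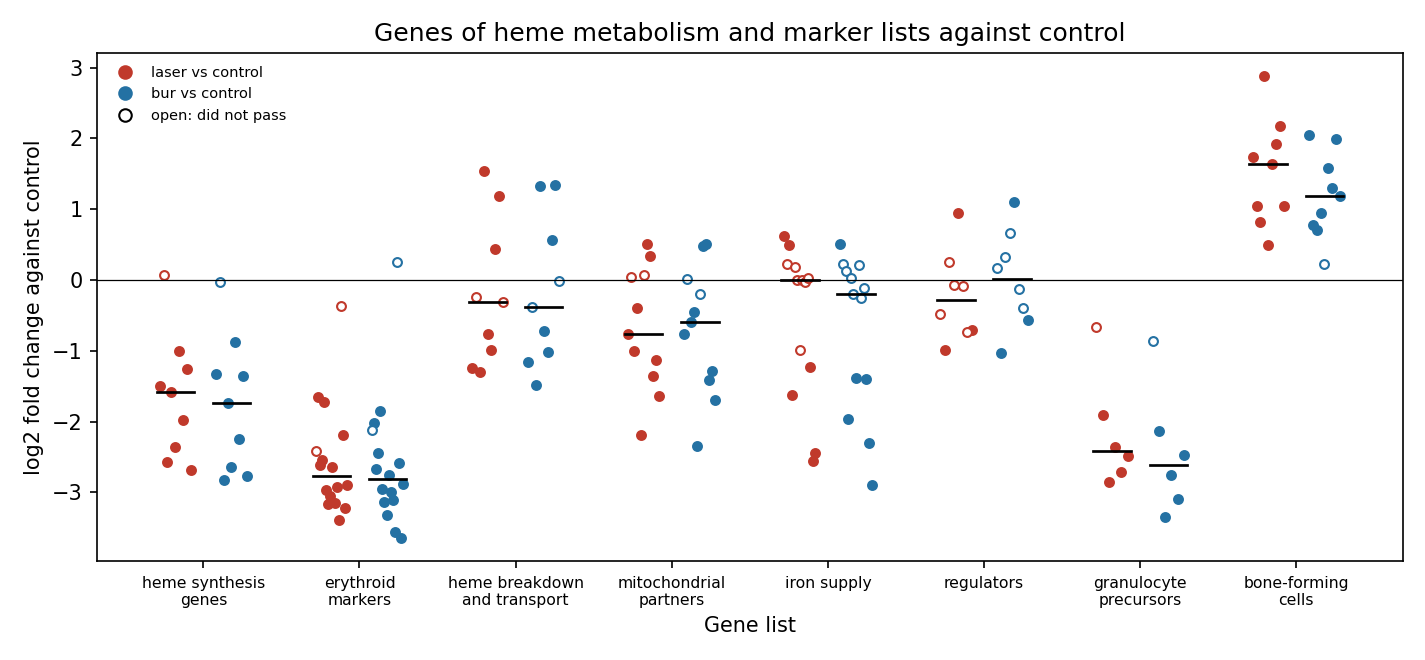
Log2 fold change against control (vertical axis) of the 9 heme synthesis genes and of the genes of 7 other lists, with laser against control left and bur against control right in each list. Filled points had an adjusted p under 0.05, and bars mark the list medians, lowest for the erythroid markers and highest for the genes of bone-forming cells.

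The genes nearest to Alas2 in profile over the 12 arrays, out of 14498 candidates and by root mean square difference of centred log2 values, were Mki67, the proliferation marker (0.211), Ypel4 (0.213), Atp6ap1l (0.215), Klf1, an erythroid transcription factor (0.221), and Tal1, a transcription factor of blood cell precursors (0.236). The genes nearest to Alas1 were Shoc2, a signalling scaffold (0.120), the kinase gene Csk (0.121), the peptidase gene Dpp9 (0.126), Dgkh, a diacylglycerol kinase (0.129), and Jmjd6 (0.135). Profiles of these arrays share slide and preparation within groups.

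In the authors' deposited table of comparisons, Alas2 had a log2 fold change of -3.05 for laser and -3.28 for bur against control, and Alas1 of -0.14 for both with adjusted p of 0.515 and 0.516. In the authors' deposited table the other 7 genes were lower than control in both treated groups, from -1.23 (Ppox) to -2.77 (Uros) for laser by the probes used here, with Alad, present there by its further probe, at -1.995.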

How the data were processed

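The deposited array files give the intensity of each spot. Per the submitters' processing notes they come from the scanner software Agilent Feature Extraction 11.0.1.1, and per the file headers the processed signal has the local background removed. Further deposited tables hold quantile-normalized log2 values and, for each comparison of the authors, a log2 fold change and a p-value per probe. Their model was not stated in those tables or in the labels. Samples were grouped by their titles. Per the labels, 200 ng of total RNA was labelled with Cy3.

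The processed signal was log2 transformed, control and outlier spots were left out, spots of a probe were averaged and each array's 75th percentile was subtracted, which hides a change shared by most genes. Probes well above background on at least 4 of 12 arrays were kept, 30134 of 45598, and the brightest probe of each gene name was used, which gave 22937 genes. Arrays had a 75th percentile signal of 197.2 to 383.2, and their number limits the precision. One limma fit (version 3.58.1, R 4.3.3) took all 12 arrays with a mean for each group. Its two-sided p-values were adjusted by Benjamini-Hochberg over every gene tested, 0.05 was the threshold, and the fit was tested on simulated data. Gene names are those of the array design and can be old.

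The members, gene lists, tests and alternatives were chosen with earlier results of these data known. Beside the 9 members, the text names from each list the 3 genes with the smallest adjusted p for laser against control and the 5 genes nearest in profile to Alas1 and to Alas2. Slc25a28, Pgrmc2, Ahsp, Sptb, Trim10 and Hpx were named after their values were seen. The sequence of the Ppox probe used is not reported here. Flvcr1 has no probe by that name, and Ltf did not pass the filter. Alternatives covered scaling, background correction, filters, probe choice, blocks, single slides, an intensity trend, array weights, a minimum fold change and leaving out arrays. With slide as a block, contrasts with control allowed for correlation of arrays within a slide, and laser against bur was compared within slides.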

Additional observations from a re-analysis of the deposited data

Results flagged for a closer look

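In 16 of 120 groups of 4 arrays, over 40 named genes, 1 array lay apart from the other 3 by Dixon's test at the 95% level, where chance gives about 1 in 20. The 40 genes include 5 chosen for profiles like that of Alas2, in which laser replicate 1 and bur replicate 3 stand apart, and these supply 4 of the 10 cases of laser replicate 1, so the tally was partly fixed by that choice and is not to be read against the chance rate. For the 9 heme synthesis genes it was 6 of 27 groups. The 8 lowered genes share extreme arrays, so these groups are not independent and their count is not to be read against the chance rate either. Laser replicate 1 was the array that lay apart in 10 of the 16, bur replicate 3 in 3, control replicate 2 in 2 and control replicate 4 in 1. Values are log2 signal minus the array's 75th percentile.

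Laser replicate 1 stood low among the laser arrays for Alas2 at 2.19, Alad at 3.83 and Uros at -1.25. It was also low for the erythroid genes Tspan33 at -3.60 and Klf1 at -2.83, for the iron genes Fam210b at -1.21 and Tfrc at 1.1, and for Mki67 at 0.73, Atp6ap1l at -4.81 and Tal1 at -2.23. Bur replicate 3 stood high among the bur arrays for Alas2 at 6.02, Uros at 1.59 and Klf1 at 0.77. Control replicate 2 stood high for Cpox at 2.46 and Ermap at -0.0565, and control replicate 4 lay apart for Csk at 3.67. Why these arrays lie apart was not tested.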

How the results depend on the processing

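Control bone lay on a slide of its own, 1 brightest probe stands for each gene, and each call rests on 4 arrays a group. Of 30 alternatives, Alas2, Uros, Fech and Slc25a37 passed in 29 in both comparisons with control, as did Alad for laser and Cpox for bur. With a minimum log2 fold change of 1, 0 of the 9 genes were lower in either comparison, and over all genes 274 were higher and 48 lower for laser, 128 higher and 42 lower for bur, and 0 higher for laser against bur. Leaving out 1 array gave 6 to 8 of the 9 lower for laser and 5 to 8 for bur (5 without bur replicate 1 or control replicate 2). Of all 22937 genes, 3063 to 4214 were then lower for laser and 3288 to 4426 for bur. With laser replicate 1 and bur replicate 3 both left out, 2 of the 9 genes were higher for laser against bur, Alad stood at 0.50 and Ppox at 0.31 there, Alas1 at 0.018 for bur against control, and 192 genes were higher and 2 lower for laser against bur.

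Alas1 changed sign for laser against control with quantile normalization (-0.18), another percentile (-0.037) and a fit of the authors' normalized values (-0.14), for bur against control with normexp (0.17) and slide 1 only (0.069), and for laser against bur in the fit of the authors' normalized values (-0.0024). For laser against bur Alas2 stood at -0.063 with slide 1 only, and Cpox at -0.016 and Urod at -0.0025 with slide 2 only. Sptb changed sign with the mean of its probes (-0.85, bur) and with slide 2 only (0.30, laser), and ran from -0.13 to 0.71 for bur without 1 array. Without 1 array, Alas1 ran from -0.0053 to 0.15 for laser and -0.16 to 0.052 for bur, and for laser against bur Alad from -0.41 to 0.22, Alas2 from -0.12 to 1.11, Cpox from -0.14 to 0.63, Ppox from -0.25 to 0.094, Slc25a37 from -0.0085 to 0.68, Urod from -0.15 to 0.50 and Uros from -0.12 to 0.61. The causes were not tested. Over all genes, laser against bur had 5 higher with normexp, 2 with an intensity trend, 9 higher and 1 lower with slide as a block, 0 higher with the mean of probes, only the 2 groups compared or 1 treated slide, and 0 to 1 without 1 array. Bur against control had 4847 higher with normexp, and laser against control 2589 lower with slide 2 only. The share of higher calls was 64.7% for laser and 64.2% for bur, and 55.6% and 51.6% with normexp, 56.3% and 54.7% with quantile normalization. The median of all genes for laser was 0.03 with normexp and 0.09 with quantile normalization, against 0.21.

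Deviations of same-numbered arrays from their group means correlated positively but unevenly (0.046 to 0.577). The main fit did not take the numbers as pairs, so any pairing is ignored there. With the replicate number as a block the 9 genes had 8 lower in both comparisons with control. Over all genes 8065 were then higher and 4456 lower for laser, against 7388 and 4032 without the block. For bur 8262 were higher and 4623 lower, against 7507 and 4195. Each array had 4 candidates in the other group, and its own number correlated best in 5 of 8 cases between laser and control. The number was 6 of 8 between bur and control and also between laser and bur. Whether same-numbered samples share an origin was not tested.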
